A study of Takifugu obscurus with 9 samples.

Results

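Transcripts of 10 kinesin motors of cell division were followed in whole kidney of obscure puffer (Takifugu obscurus) after poly(I:C), an artificial double-stranded RNA that mimics viral RNA. The motors are kif11, kif14, kif15, kif18a, kif20a, kif20b, kif23, kif2c, kif4a and kifc1. Members were features of the deposited table whose best match is a fish protein and whose Swiss-Prot name, or whose description as a kinesin-like protein, carries one of these symbols. A feature is a cluster of de novo assembled transcripts treated as 1 gene. The rule found 21 of 46444 features, and 1 of these, described below, carries the name of a ribosomal protein and was kept apart. The other 20 comprise 12 long features of 2740 to 5693 nucleotides (nt) and 8 short ones of 201 to 717 nt.

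The fish were 3 months old and not described by strain or genotype. There were 9 libraries of total kidney RNA, 3 labelled as controls at 0 h, 3 taken 12 h after poly(I:C) and 3 taken 48 h after it. The labels do not state whether the controls were injected or whether replicates are separate fish, so p-values measure the spread between these libraries only. No control was taken at 12 h or 48 h, so time and treatment cannot be told apart.

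Kinesins are motor proteins that walk along microtubules or take them apart, using ATP. Those of this set build the mitotic spindle, position chromosomes on it, or organise the central spindle and the final cut between daughter cells. In mammals, many of their genes are transcribed mainly in late cell cycle phases, so their RNA is widely used as a sign of dividing cells. The fish kidney is both a renal and a blood-forming organ and holds dividing blood precursors. In a bulk sample, a change in the number of dividing cells and a change in RNA per cell cannot be told apart.

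Values are TPM, a transcript abundance corrected for feature length and scaled to a common total, and fold changes are differences of group means of log2(TPM + 1). Tests with limma, two-sided, were run over the 45473 features that reached 1 TPM in 3 or more libraries, and a feature was called where its p, adjusted by Benjamini-Hochberg over all of these, was below 0.05. The columns total 993873 to 996068 TPM. No read counts were used here, so the depth behind each value is unknown and no counting interval can be given. Control libraries 1 and 2 were close to each other (r = 0.985 across features of log2 values), against 0.857 to 0.967 for the other pairs within groups. Control library 3 stood apart from its fellows (r = 0.857 and 0.864) and nearer to the 48 h libraries (0.920 to 0.927). Results that rest on control library 3 are given with and without it. The kidney label was checked against 13 proximal tubule markers, all found, of which only slc34a1 was at 0 in any library.

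The summed level of the mitotic motors was highest, and its libraries were closest together, at 48 h. By group mean, all 12 long features were highest at 48 h, and 11 had their smallest SD there, the exception being kifc1. The 12 long features summed to 275, 288 and 287 TPM at 48 h. At 0 h they summed to 111, 100.1 and 229 TPM, and at 12 h to 194, 85.9 and 140 TPM. All 3 sums at 48 h lay above every other library, and control library 3 and 12 h library 1 were the highest of their groups. The means were 147 ± 71.8 TPM at 0 h, 140 ± 54.2 at 12 h and 283 ± 7.17 at 48 h (SD, n = 3 each), so the 48 h mean was 1.93 times that at 0 h and 2.02 times that at 12 h. None of the 12 long features passed the adjusted test in any of the 3 comparisons.

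**Figure D1:**
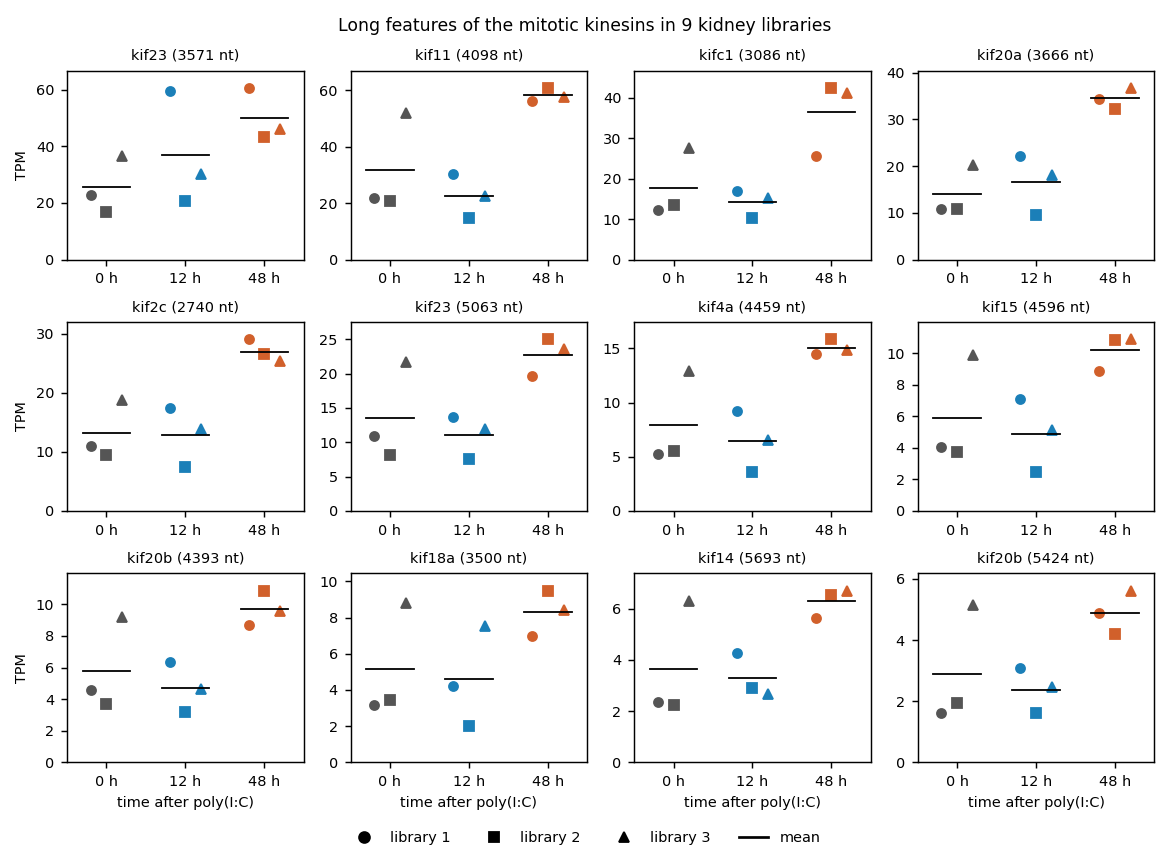
Level of each of the 12 long kinesin features in TPM (vertical axes, each from 0) in the 3 libraries of each group (points, marker shape by library) with the group mean (line). The 48 h mean is the highest in all 12 panels, and control library 3 sits above both other controls in all 12. All 48 h libraries lie above the other 6 in 4 panels (kif11, kif20a, kif2c and kif4a). Over all features, all 48 h libraries lie above all controls in 12.3% and above all 12 h libraries in 20.5%. The share above both was not computed.

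Of the motors that build and hold the spindle, kif11 pushes the spindle poles apart and is needed for a bipolar spindle in animal cells. The kif11 feature (TRINITY_DN20787_c0_g1) stood at 21.8, 20.8 and 52.1 TPM in the controls, at 30.4, 14.6 and 22.4 TPM at 12 h and 56.1, 60.9 and 57.5 TPM at 48 h. The 48 h libraries lay above all others, by a small margin over control library 3. The log2 fold change was 0.99 ± 0.35 (SE) for 48 h against 0 h (limma adjusted p = 0.417) and 1.39 ± 0.35 for 48 h against 12 h (adjusted p = 0.0721). For 12 h against 0 h it was -0.40 ± 0.35 (adjusted p = 0.64).

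The second spindle motor, kif15, can back up kif11 in human cells. It stood at 4.05, 3.76 and 9.90 TPM at 0 h, at 7.06, 2.44 and 5.15 TPM at 12 h and 8.86, 10.8 and 10.9 TPM at 48 h, with control library 3 inside the 48 h range. The minus-end motor kifc1, which focuses spindle poles and clusters centrosomes, stood at 12.1, 13.4 and 27.6 TPM in the controls, at 16.8, 10.4 and 15.3 TPM at 12 h and 25.6, 42.5 and 41.2 TPM at 48 h. Control library 3 exceeded one 48 h library for kifc1 as well, while all 12 h libraries lay below 48 h. Its log2 fold change for 48 h against 12 h was 1.29 ± 0.32 (limma adjusted p = 0.0720).

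Motors that act on chromosomes and microtubule ends had their highest values at 48 h too. The microtubule depolymerase kif2c, which corrects faulty kinetochore attachments, stood at 11.1, 9.53 and 18.9 TPM at 0 h, at 17.4, 7.50 and 13.8 TPM at 12 h and 29.1, 26.5 and 25.4 TPM at 48 h. The chromosome-bound motor kif4a, which also sets the length of the central spindle with prc1, stood at 5.29, 5.53 and 13.0 TPM, at 9.24, 3.62 and 6.51 TPM and at 14.5, 15.9 and 14.8 TPM. For both, the 48 h libraries lay above all 6 others. The plus-end motor kif18a, which damps chromosome movements at metaphase, was the less regular one: its 12 h libraries stood at 4.23, 2.03 and 7.52 TPM and its 48 h libraries at 6.98, 9.50 and 8.44 TPM, which overlap, and control library 3 at 8.80 TPM was above the 48 h mean of 8.31 TPM.

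Among the motors of the central spindle and of cytokinesis, kif20a is needed to bring the chromosomal passenger complex, with Aurora B kinase, to the central spindle. Its long feature (TRINITY_DN18646_c0_g1) stood at 10.8, 10.8 and 20.3 TPM in the controls, at 22.1, 9.42 and 18.0 TPM at 12 h and 34.4, 32.2 and 36.7 TPM at 48 h. All 48 h libraries were above the other 6. The log2 fold change for 48 h against 0 h, 1.30 ± 0.31, was the largest of the 12 long features (limma adjusted p = 0.403), and that for 48 h against 12 h was 1.09 ± 0.31 (adjusted p = 0.0980).

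kif23, the motor subunit of centralspindlin (its partner is racgap1), had 2 long features. The feature of 3571 nt (TRINITY_DN21219_c1_g1) stood at 22.9, 16.9 and 36.6 TPM at 0 h, at 59.7, 20.6 and 30.1 TPM at 12 h and 60.7, 43.3 and 46.2 TPM at 48 h. Its 12 h library 1 lay within the 48 h range. The feature of 5063 nt stood at 10.9, 8.14 and 21.7 TPM, at 13.7, 7.57 and 11.9 TPM and at 19.6, 25.0 and 23.6 TPM, and here all 12 h libraries lay below 48 h. The table cites different protein entries for the pair, and whether they are paralogues or parts of 1 gene was not tested.

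kif20b, which takes part in completing cytokinesis, also had 2 long features, of 4393 and 5424 nt. The group means of the first were 5.81 ± 2.98, 4.72 ± 1.59 and 9.71 ± 1.11 TPM at 0 h, 12 h and 48 h (SD, n = 3 each). Those of the second were 2.89 ± 1.95, 2.37 ± 0.738 and 4.90 ± 0.715 TPM. The first is named KIF20B by Swiss-Prot while its best fish match is described as an isoform of KIF20A, so its name is uncertain. kif14, which works with citron kinase at the midbody, had means of 3.63 ± 2.31, 3.28 ± 0.865 and 6.29 ± 0.589 TPM.

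By mean level at 48 h the order ran from kif11 (58.2 ± 2.43 TPM, SD, n = 3) through the 3571-nt kif23 feature (50.1 ± 9.32), kifc1 (36.4 ± 9.39), kif20a (34.5 ± 2.25), kif2c (27.0 ± 1.90), the 5063-nt kif23 feature (22.7 ± 2.78), kif4a (15.1 ± 0.708), kif15 (10.2 ± 1.14), the 4393-nt kif20b feature, kif18a (8.31 ± 1.27) and kif14 down to the 5424-nt kif20b feature. Neighbours whose ranges of mean ± SD overlap are kif11 and the 3571-nt kif23 feature, that feature and kifc1, kifc1 and kif20a, kif2c and the 5063-nt kif23 feature, kif15 and the 4393-nt kif20b feature, and the latter and kif18a. The library ranges of kif4a at 48 h overlap with no other long feature's.

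Set against all features, the motors' direction at 48 h was uniform while their adjusted tests were not passed. For 48 h against 0 h all 12 long features had a log2 fold change above 0, from 0.70 to 1.30 with a median of 0.88, beside a median of 0.13 and 61.3% above 0 over all features tested. The limma adjusted p ranged from 0.403 to 0.538, and only 5 features of the whole table, 0.011%, were called. At an unadjusted p under 0.05, 9 of the 12 were higher, against 8.0% of all features. Under quantile normalization that count was 6, with a median of 0.78 beside 0.04 over all features. The share of all features at that p was not computed there. In 5 of the 12, kif11, kif20a, kif2c, kif4a and the 3571-nt kif23 feature, the groups did not overlap, against 12.3% of all features.

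Control library 3 bears on this comparison directly. It was 1.83 to 2.90 times the mean of control libraries 1 and 2 in the 12 long features, and in 7 of them it was at or above the lowest 48 h library. Control libraries 1 and 2, which were close to each other, both lay below every 48 h library in all 12. The share of all features with that order was not computed. Without control library 3, the log2 fold changes were 1.07 to 1.59 with a median of 1.24, all 12 had an unadjusted p under 0.05, and the limma adjusted p ranged from 0.0646 to 0.168. Over the whole table, 78 features were called in that fit, beside 5 with control library 3. The count of 9 with an unadjusted p under 0.05 fell to 3 when either of control libraries 1 and 2 was left out, and to 5 without 48 h library 2. With control libraries 1 and 2 averaged to 1 library, the fold changes were 0.51 to 1.16 with a median of 0.69, 3 of the 12 had an unadjusted p under 0.05, and the adjusted p ranged from 0.852 to 0.886. The share of all features at an unadjusted p under 0.05 was not computed for these alternatives.

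For 48 h against 12 h all 12 long features again had a log2 fold change above 0, beside 65.2% of all features, from 0.55 in the 3571-nt kif23 feature to 1.39 in kif11, with a median of 1.01 beside 0.21 over all features. Quantile normalization brought the median over all features from 0.21 to 0.04 and that of the 12 to 0.83, with a range of 0.45 to 1.28. At an unadjusted p under 0.05, 10 of the 12 were higher, against 15.6% of all features, and in 10 the groups did not overlap, against 20.5%. The exceptions to the second count were kif18a and the 3571-nt kif23 feature. Under quantile normalization 7 of the 12 were higher at an unadjusted p under 0.05, and the share of all features was not computed. Without 12 h library 2, 6 of the 12 were higher at an unadjusted p under 0.05 and the median was 0.74. The share of all features at that p was not computed without that library. Called features numbered 763 in the whole table (1.68%), 485 higher (1.07%) and 278 lower (0.611%); under quantile normalization the split was 264 higher and 358 lower. The groups share an estimate of the spread in this fit. Leaving out control library 3 raised the called features of the whole table from 763 to 2449, and the cause was not tested. In that fit 4 long features passed the threshold, namely kif11 (limma adjusted p = 0.0194), kifc1 (0.0267), the 5063-nt kif23 feature (0.0411) and kif4a (0.0429).

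For 12 h against 0 h the motors showed no common direction. The log2 fold changes ran from -0.40 in kif11 to 0.45 in the 3571-nt kif23 feature, with a median of -0.17 beside -0.07 over all features, and limma adjusted p from 0.626 to 0.984. No long feature had an unadjusted p under 0.05, the smallest being 0.262, while 6.16% of all features were higher and 9.74% lower at that p and 647 (1.42%) were called. Of the 12, 2 had a log2 fold change above 0, beside 44.2% of all features. The sign turned with single libraries. Without control library 3 all 12 were above 0, from 0.02 to 0.73 with a median of 0.20, and without 12 h library 2, 10 of 12 were above 0 with a median of 0.07. Neither gave an unadjusted p under 0.05. Libraries at 12 h were spread, with library 1 the highest in 11 of the 12 and library 2 the lowest in 11.

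**Figure D2:**
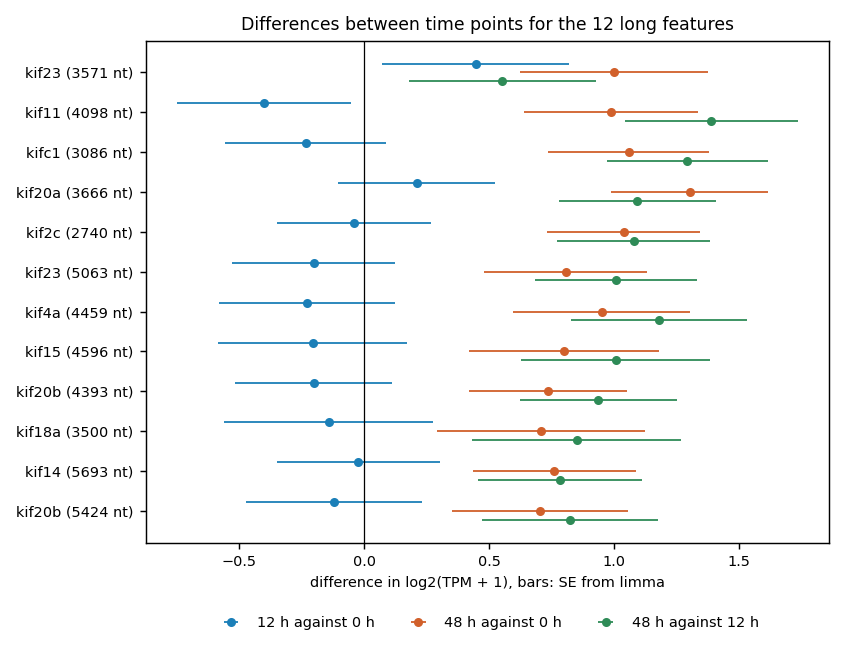
Difference of group means of log2(TPM + 1) for the 12 long features (points with SE bars from limma) in the 3 comparisons of times. All 12 lie above 0 in both comparisons of 48 h, from 0.70 to 1.30 against 0 h and 0.55 to 1.39 against 12 h, and both sides of 0 at 12 h against 0 h.

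Within the set, kif11 had its lowest share at 12 h and the 3571-nt kif23 feature its highest. kif11 made up 19.7%, 20.8% and 22.7% of the summed TPM of the 12 long features in the controls, 15.6%, 17.0% and 16.0% at 12 h and 20.4%, 21.1% and 20.1% at 48 h. All 12 h shares lay below all others. The 3571-nt kif23 feature held 20.7%, 16.9% and 16.0%, then 30.7%, 24.0% and 21.5%, then 22.1%, 15.0% and 16.1%, so that its 12 h shares lay above all controls and overlapped with 48 h library 1. Shares of 1 sum are bound to each other.

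**Figure D3:**
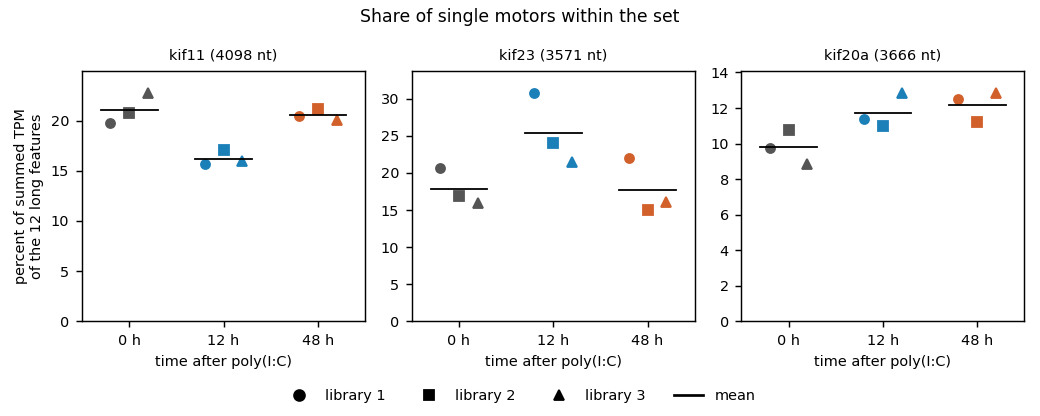
Share of the summed TPM of the 12 long features (percent, vertical axes from 0) held by single features in each library (points), with group means. The kif11 share lies at 15.6% to 17.0% at 12 h and at 19.7% to 22.7% elsewhere, and the 3571-nt kif23 feature reaches its highest share, 30.7%, in 12 h library 1.

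The ratio of the 3571-nt kif23 feature to kif11 was 1.05, 0.814 and 0.703 at 0 h, 1.97, 1.41 and 1.34 at 12 h and 1.08, 0.712 and 0.803 at 48 h. The 12 h ratios lay above all 6 others. The log2 difference was 0.88 for 12 h against 0 h and -0.86 for 48 h against 12 h, each with an exact two-sided permutation p of 0.1. That is the smallest p that 3 against 3 libraries can give, and adjusted over the 33 ratio comparisons computed it is 0.3. The long kif20a feature also had its lowest ratios to kif11 in the controls, 0.493, 0.519 and 0.390, beside 0.727, 0.644 and 0.803 at 12 h and 0.612, 0.530 and 0.639 at 48 h, with the groups apart in each comparison (exact p = 0.1 each, adjusted 0.3). All 11 ratios to kif11 had a higher mean log2 value at 12 h than at 0 h and a lower one at 48 h than at 12 h, kif11 being the denominator of each. Of these, 4 and 6 reached the smallest possible p. The ratio of kif4a to kif11 ran from 0.242 to 0.304 over the 9 libraries. The long kif23 pair differed too: the 3571-nt feature was 2.11, 2.08 and 1.68 times the 5063-nt one at 0 h, 4.36, 2.72 and 2.54 times at 12 h and 3.09, 1.73 and 1.96 times at 48 h.

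The short features belong to kif20a and kif23. The 4 short kif20a features, of 201, 234, 241 and 717 nt, summed to 2.11, 3.22 and 2.89 TPM at 0 h, to 3.13, 2.77 and 3.40 TPM at 12 h and 22.7, 6.34 and 15.4 TPM at 48 h. All 48 h sums lay above the other 6, with library 1 the highest and library 2 the lowest. The 4 short kif23 features summed to between 5.34 and 12.5 TPM over all libraries, and the lowest sum of all was in 48 h library 3. Their log2 fold changes for 48 h against 0 h were -0.44 to -0.04, none past limma's adjusted test. Control library 3, at 2.89 TPM for the summed short kif20a features, lay between its fellows. By feature it was above both in those of 234 and 717 nt and not in those of 201 and 241 nt.

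A short kif20a feature of 201 nt was the only member called in any comparison. It was listed at 0 in all 12 h libraries, at 0, 1.02 and 0 TPM in the controls and at 4.25, 2.28 and 4.18 TPM at 48 h, so no fold change against 12 h is given. It passed the filter on low values only through the 48 h libraries, where it is high, so its limma call for 48 h against 12 h is given as a description only. The number of called members, 1, became 5 without control library 3 and 0 without 12 h library 2 or 3 or any single 48 h library. Called features of the whole table were 763 (1.68%) in the main fit, 2449 without control library 3 and 34 to 270 in the fits with 0 called members just named. The feature of 234 nt stood at 0.91 to 1.5 TPM at 0 h, at 1.5 to 2.22 TPM at 12 h and at 6.51, 2.32 and 4.30 TPM at 48 h (48 h against 0 h, 1.18 ± 0.35, limma adjusted p = 0.409). The feature of 241 nt stood at 0.85, 0.64 and 0.70 TPM, at 0, 0.70 and 1.45 TPM and at 8.08, 1.44 and 4.68 TPM. The feature of 717 nt failed the filter on low values, with 0.18 to 0.91 TPM at 0 h and 12 h and 3.84, 0.30 and 2.28 TPM at 48 h.

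**Figure D4:**
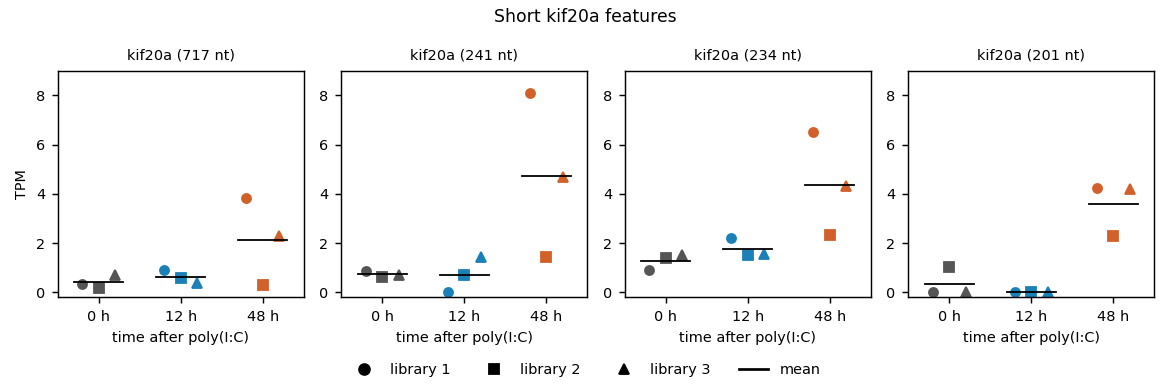
Level in TPM (vertical axes, on 1 common scale) of the 4 short kif20a features in the 3 libraries of each group (points, marker shape by library) with group means (lines). The 201-nt feature is listed at 0 in all 12 h libraries and at 2.28 to 4.25 TPM at 48 h, and library 2 is the lowest of the 48 h libraries in each.

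Of the 4 short kif20a features, the 201-nt, 241-nt and 717-nt ones cite other Pfam protein entries than the long one and the 234-nt one cites none. Whether they come from the same gene was not tested. The 4 stood at 0 to 2.22 TPM at 0 h and 12 h, near the low end for short features, and at 0.30 to 8.08 TPM at 48 h. On single-transcript features of 200 to 300 nt the 5th percentile of values above 0 was 0.52 to 0.66 TPM in the 9 libraries. The 717-nt feature lies outside that range of lengths.

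The feature kept apart (TRINITY_DN21888_c1_g2), of 1801 nt, is described as KIF20A but has the Swiss-Prot name RPS20 and the Pfam domain Ribosomal_S10, both of a protein of the small ribosomal subunit. It stood at 1442, 1425 and 1671 TPM at 0 h, at 1305, 1079 and 1158 TPM at 12 h and 1628, 1257 and 1583 TPM at 48 h. Its mean over all libraries was 64.4 times that of the long kif20a feature. It held 96.6% to 99.1% of the summed TPM of the features counted as kif20a, itself included. That sum leaves out the kif20b feature whose best fish match is described as a KIF20A isoform, at 3.18 to 10.88 TPM over the libraries. A sum by description would thus give the values of this feature and not of the motor. Its 12 h libraries lay below its controls (log2 fold change -0.36 ± 0.14, limma adjusted p = 0.260), a pattern the long kif20a feature did not have. The 717-nt short feature shares its assembly component.

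For 48 h against 0 h, all 39 other mitotic genes listed had a log2 fold change above 0 (61.3% of all features). In control library 3, 38 of them were higher than in both fellows. Of these 39 genes for mitotic cyclins and kinases, kinetochore, checkpoint, condensin and cytokinesis, all were tested. Against 0 h, at 48 h none passed limma's adjusted test, and 37 were higher at an unadjusted p under 0.05 (8.0% of all features). That count of 37 is given with control library 3 only. The median log2 fold change was 0.96, beside 0.88 for the 12 long motor features and 0.13 for all features. Against 12 h, 1 was called (1.68% of all features), 37 were higher at an unadjusted p under 0.05 (15.6%), and the median was 1.12. The called gene was knl1, a scaffold of the outer kinetochore, which rose from 8.18 ± 2.97 to 26.9 ± 4.93 TPM (log2 fold change 1.64 ± 0.34, adjusted p = 0.0486). That count of 1 became 24 without control library 3, 3 without 12 h library 1 and 0 without each of the other 7 libraries. Called features of the whole table moved too, from 763 to 2449, to 1401 and to between 34 and 394 in the same order. Next came anln, the cytokinetic scaffold anillin (1.39, adjusted p = 0.0559), ube2c, the ubiquitin carrier of the anaphase-promoting complex (1.35, adjusted p = 0.0615), and ccnb1, cyclin B1 (1.32, adjusted p = 0.0656), none of which passed limma's adjusted test.

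The motors' direct partners named here also had their highest means at 48 h. These partners were chosen after their values were seen. They belong to the other mitotic genes listed above, so their pattern is not separate evidence. racgap1, which pairs with kif23, had 15.7 ± 7.85, 14.7 ± 5.52 and 30.9 ± 0.488 TPM at 0 h, 12 h and 48 h. prc1, which bundles central spindle microtubules and binds kif4a, had 17.2 ± 8.87, 14.5 ± 5.11 and 34.8 ± 0.924 TPM (48 h against 12 h, 1.26, adjusted p = 0.0796 by limma). aurkb, the kinase of the passenger complex, had 32.7 ± 18.3, 31.2 ± 12.9 and 67.6 ± 11.1 TPM. Its fellow subunits incenp, birc5 and cdca8 had 48 h means of 70.7, 56.7 and 55.3 TPM beside 29.2 to 38.3 TPM at the earlier times. Among the mitotic kinesins outside the set, cenpe, a kinetochore motor, had 15.5 ± 9.59, 14.1 ± 4.44 and 32.9 ± 2.98 TPM, and kif22, a chromosome-arm motor, 18.5 ± 7.19, 18.4 ± 4.08 and 28.0 ± 0.462 TPM. cdc20, an activator of the anaphase-promoting complex, had 46.9 ± 3.31, 77.2 ± 5.31 and 60.0 ± 21.6 TPM, its highest mean at 12 h (12 h against 0 h, 0.71 ± 0.22, adjusted p = 0.156).

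Of 25 genes of DNA replication, none was called by limma in any comparison. At 48 h against 0 h all 25 had a log2 fold change above 0 (61.3% of all features) and the median was 0.63. Of the 25, 11 were higher at an unadjusted p under 0.05 (8.0% of all features). Against 12 h the median was 0.61 and 12 were higher at that p (15.6% of all features). The smallest adjusted p for 48 h against 12 h was that of rfc4, a subunit of the clamp loader (1.09, adjusted p = 0.0938), followed by tk1, thymidine kinase (1.53, adjusted p = 0.104).

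Kinesins listed for transport or other roles had lower medians at 48 h than the mitotic motors of this set, a difference that was not tested. Of 30 listed genes of kinesins for cargo transport, cilia and other roles, 22 were found, none was called by limma in any comparison, and the median log2 fold change was -0.21 for 12 h against 0 h, 0.11 for 48 h against 0 h and 0.33 for 48 h against 12 h. At an unadjusted p under 0.05, 1 was higher and 5 were lower in the first comparison, beside 6.16% and 9.74% of all features. In the second, none was higher, beside 8.0% of all features, and none was lower. In the third, 8 were higher, beside 15.6% of all features. kif2a, a depolymerase related to kif2c, had 14.1 ± 2.52, 15.0 ± 2.17 and 16.0 ± 1.77 TPM at the 3 times. kif26a, a motor-like signalling protein, had the smallest adjusted p of the list for 12 h against 0 h (-1.78, adjusted p = 0.0671).

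The motors and the other mitotic genes can be set side by side in each library. The mean of log2(TPM + 1) over the 12 long motor features was 3.02, 2.93 and 4.03 at 0 h, 3.64, 2.71 and 3.34 at 12 h and 4.15, 4.27 and 4.27 at 48 h. The difference from the mean of the 39 other mitotic genes lay between -1.05 and -0.87 in all 9 libraries. The difference from the 22 other kinesins ran from -0.14 in control library 2 to 1.22 in 48 h library 3.

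**Figure D5:**
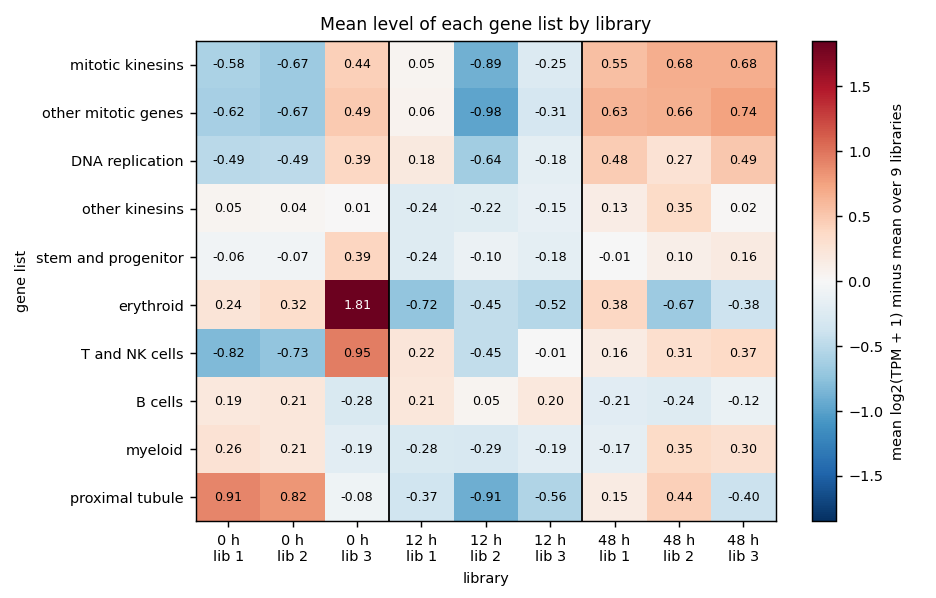
Mean log2(TPM + 1) of each gene list in each library, centred on the list's own mean over the 9 libraries (colour), for the 12 long motor features, other mitotic genes, replication genes, other kinesins and cell type markers. The motors run from -0.89 in 12 h library 2 to 0.68 in 48 h library 2, beside -0.98 to 0.74 for other mitotic genes and -0.24 to 0.35 for other kinesins.

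Markers of cell types also differed between control library 3 and its fellows, in both directions. The 11 erythroid markers summed to 20098, 21426 and 72007 TPM in the controls, to 10807 to 11708 TPM at 12 h and 4444 to 17891 TPM at 48 h, and all 11 were higher in control library 3 than in both fellows. The 13 T and NK cell markers summed to 223, 233 and 1007 TPM in the controls, to 412 to 547 TPM at 12 h and 538 to 583 TPM at 48 h, with 11 of 13 highest among the controls in library 3. The 8 stem and progenitor markers summed to 203, 200.5 and 295 TPM in the controls, to 201 to 211 TPM at 12 h and 217 to 254 TPM at 48 h. Of these 8, 4 were highest and 3 lowest among the controls in library 3. The 8 B cell markers summed to 563, 552 and 383 TPM in the controls, to 531 to 552 TPM at 12 h and 465 to 521 TPM at 48 h, with 6 of 8 lowest among the controls in library 3. The 11 monocyte, macrophage and neutrophil markers summed to 4268, 4158 and 2335 TPM in the controls, to 2959 to 3686 TPM at 12 h and 2905 to 4164 TPM at 48 h, with 6 of 11 lowest and 4 highest among the controls in library 3. The 13 proximal tubule markers summed to 763, 735 and 327 TPM in the controls, to 262 to 379 TPM at 12 h and 254 to 493 TPM at 48 h. Of these markers, 12 were lowest among the controls in library 3, and 1, slc34a1, was highest there. None of the erythroid, T and NK, B cell, myeloid or progenitor markers was at 0 in any library, and the part of these cells in the motors' values was not tested. At 48 h the erythroid sums lay below all 3 controls, but these sums are mostly the globins hbae, hbb and hba. The mean log2(TPM + 1) over the 11 erythroid markers overlapped, at 6.82, 6.90 and 8.39 in the controls and 6.96, 5.91 and 6.20 at 48 h.

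Cyclins were among the genes whose pattern over the libraries was most like that of kif11 and kif20a. Likeness was the root mean square difference of log2(TPM + 1), each centred on its own mean, over the 9 libraries, among 8649 symbols of at least 5 TPM on average. Closest to kif11 were lbr, the lamin-B receptor of the nuclear envelope (0.0885), and ccnb1, cyclin B1 (0.0963). Next were a feature named il1rl2 and matching an interleukin receptor (0.105), ckap2l, a spindle protein (0.1098), and cenpn, a centromere protein (0.112). The median over the 8649 symbols was 0.664. Closest to kif20a were ccna2, cyclin A2 (0.103), a feature matching an M-phase inducer phosphatase of the cdc25 family (0.132), cdkn3 (0.139), arhgef39 (0.142) and mtfr2 (0.142), beside a median of 0.624. Within the set kif4a was closest to kif11 (0.108) and the 3571-nt kif23 feature farthest (0.465), while kif2c was closest to kif20a (0.150) and kif18a farthest (0.370).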

How the data were processed

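Kidney RNA was sequenced in 9 libraries, 3 per time, grouped by the labels. The authors deposited 1 table of 46444 assembled features. Its header names no unit. Column totals of 993873 to 996068 led to the deposited values being read as TPM. The feature identifiers carry the prefix TRINITY, the name of a de novo transcript assembler. The assembler's version, the quantification tool and any genome build are not given in the sources used here. Values were used as log2(TPM + 1) for features reaching 1 TPM in 3 or more libraries. The fit used limma 3.58.1 under R 4.3.3 (1 coefficient per group, eBayes with trend and robust options, two-sided, Benjamini-Hochberg over 45473 features). Gene symbols come from the table's own descriptions and Swiss-Prot names. A symbol with several features is stood for by the one with the highest mean. Named genes are all members, up to 4 genes per list and comparison with the smallest adjusted p, and the 5 most alike symbols; partners of the motors named beyond these were chosen after their values were seen. The members and lists were chosen with earlier results of these data known. Same-numbered libraries had residual correlations from -0.224 to 0.373, so the numbers were not treated as pairs. Alternatives were quantile normalization, no trend, other filters, a pseudocount of 0.1, the replicate block, only the compared groups, each library left out, averaged controls, features summed by symbol and an adjusted p under 0.01.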

Additional observations from a re-analysis of the deposited data

How the results depend on the processing

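The direction of the 12 long motor features held in all 237 values under alternatives for 48 h against 0 h (0.47 to 1.59). It also held in all 237 for 48 h against 12 h (0.22 to 1.63), where 6 values passed limma's adjusted test. No long feature passed it for 48 h against 0 h under any alternative, the smallest adjusted p being 0.0646 without control library 3. Many of the 237 fold changes in each comparison could not differ from the main ones. No trend, the other filters, the replicate block, only the compared groups and the stricter threshold left each fold change as it was. So did leaving out or averaging libraries of the group not compared.

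For 12 h against 0 h, 23 of 237 values changed sign, and here too many of the 237 were fixed at the main value. With quantile normalization kif2c was at 0.00643 and kif14 at 0.0876, and with averaged controls and 12 h library 3 left out, an alternative chosen after seeing the data, kif20a was at -0.0306. Leaving out each library in turn gave -0.64 to 0.0159 for kif11, -0.44 to 0.12 for kifc1, -0.0281 to 0.55 for kif20a, -0.28 to 0.28 for kif2c, -0.48 to 0.17 for the 5063-nt kif23 feature, -0.50 to 0.14 for kif4a, -0.48 to 0.18 for kif15, -0.43 to 0.13 for the 4393-nt and -0.355 to 0.26 for the 5424-nt kif20b feature, -0.51 to 0.25 for kif18a and -0.23 to 0.36 for kif14.

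Counts of called features over the whole table moved more. For 12 h against 0 h, 647 became 326 with no trend, 235 with only the compared groups, 60 with control libraries 1 and 2 averaged, 6 with 12 h library 3 also left out and 61 at an adjusted p under 0.01, and 50 to 880 with each library left out. For 48 h against 0 h, 5 became 0 with no trend, 3 with a pseudocount of 0.1, 0 with averaged controls and 12 h library 3 left out and 3 at 0.01, and 0 to 78 with each library left out. For 48 h against 12 h, 763 became 458 with no trend, 1364 with a filter of 5 TPM, 438 with averaged controls, 2 with 12 h library 3 also left out and 35 at 0.01, and 34 to 2449 with each library left out. The 1 called member of that comparison was the 201-nt kif20a feature. It passed the filter only through the 48 h libraries, where it is high, so its call is a description only. The count of 1 became 2 with only the compared groups and 0 to 5 with each library left out. The count was 0 with a pseudocount of 0.1, with features summed by symbol and at 0.01. With averaged controls and 12 h library 3 left out it was also 0. The causes were not tested.

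With the replicate block, the called features numbered 284, 3 and 285 in the 3 comparisons and the called members 0 for 48 h against 12 h. The numbers share no stated source, and not every same-numbered pair correlated.

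No reads were used here, so the smallest detectable difference of the short features, some listed at 0, cannot be given.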
